A study of Mus musculus with 12 samples.

Results

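The Bcl2 family members examined were Bcl2, Bcl2l1, Mcl1, Bax, Bak1, Bcl2l11, Bid, Bbc3 and Pmaip1, 9 genes of the 57009 Ensembl gene identifiers in the count table. They were chosen by name, each symbol matching 1 identifier in GENCODE M21, and all 9 passed the filter on low counts that left 14413 genes for testing. RNA was sequenced from C57BL/6 mouse splenic dendritic cells (DCs), the cells that present antigen to T cells, in 12 libraries of 4 groups, 3 libraries each. All DCs came from spleens of mice carrying B16 tumours made to release Flt3 ligand, which expands the DC pool. Beads against T, B and NK cells and macrophages were used to enrich them. For 3 h they were cultured with memory T cells of BALB/c origin specific for alloantigen (AlloTem), with memory T cells of syngeneic B6 origin (SynTem), with lipopolysaccharide (LPS), or alone (DC only), and then sorted on CD11b and CD11c. T cells of AlloTem and SynTem thus differed in strain as well as in specificity, so these cannot be told apart. Nothing in the labels ties a replicate to its own animal or culture. The p-values therefore weigh differences against a spread between libraries that may be technical in part. The sex of the cells also differed between libraries of a group, as given below. In such bulk samples, fewer cells of a type and less RNA per cell cannot be told apart.

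Total counts were 20055002 to 21861156 in AlloTem, 13903574 to 15982118 in SynTem, 16587165 to 17472400 in LPS and 16323673 to 19461531 in DC only. The summed level of 14 DC markers, among them Itgax, Flt3, Zbtb46 and MHC class II genes, was between 13004 and 25408 CPM (counts scaled to equal library size) in every library. The summed level of 20 T cell markers was 268.7, 162.8 and 138.9 CPM in AlloTem libraries 1 to 3 and 279.7, 647.5 and 514.7 CPM in SynTem. It was 66.3 to 160.2 CPM in LPS and 60.9 to 91.8 CPM in DC only, where 18 of the 20 markers still had counts. The sum of 4 neutrophil markers was 18.7 to 101 CPM in AlloTem, 7.54 to 124.2 CPM in SynTem, 16.3 to 119.4 CPM in LPS and 6.26 to 11.2 CPM in DC only. The sum of 5 B cell markers was 16.5 to 26.1 CPM in AlloTem, 10.3 to 12.5 CPM in SynTem, 13.5 to 19.4 CPM in LPS and 12.2 to 13 CPM in DC only. For 4 NK cell markers it was 90.6 to 344.2 CPM in AlloTem and 127.6 to 356.3 CPM in SynTem. In LPS it was 106.3 to 400.3 CPM and in DC only 125.8 to 300.8 CPM. The sum of 5 macrophage markers was 28.5 to 115.2 CPM in AlloTem, 26 to 129.9 CPM in SynTem, 32.8 to 76 CPM in LPS and 25 to 34.4 CPM in DC only. For 4 plasmacytoid DC markers it was 407.2 to 591.4 CPM in AlloTem and 312.3 to 335.9 CPM in SynTem. In LPS these summed to 352.6 to 512.9 CPM and in DC only to 338.3 to 609 CPM. Transcripts of the Y chromosome summed to 203.8 to 219.6 CPM in library 3 of AlloTem, LPS and DC only and to 175.1 and 130.9 CPM in SynTem libraries 2 and 3, against 0 to 10.3 CPM in the 7 others. Xist, the transcript of female cells, was at 137.6 to 145.7 CPM in library 3 of AlloTem, LPS and DC only. It was at 312.1 and 455.1 CPM in SynTem 2 and 3, and at 610 to 1188 CPM in the 7 others. The libraries numbered 3, with SynTem 2, therefore stood apart in the sex of their cells, whose part in the members' differences was not tested.

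The Bcl2 family sets the threshold of mitochondrial apoptosis. Bcl2, Bcl2l1 (encoding Bcl-xL) and Mcl1 are survival proteins that hold back the pore-forming effectors Bax and Bak1. The BH3-only proteins Bcl2l11 (Bim), Bid, Bbc3 (Puma) and Pmaip1 (Noxa) neutralise the survival proteins or activate the effectors. In DCs, Bcl2 and Bcl2l1 are known to prolong lifespan, and Bim to shorten it. Several of these proteins are controlled after transcription, Mcl1 by rapid turnover and Bid by cleavage, which RNA levels do not show.

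Mcl1 was the most abundant member per length. Levels were set beside each other as CPM per kb of annotated exon, averaged over the 12 libraries. On this scale Mcl1 was at 312.2, Pmaip1 at 113.1, Bak1 at 49.5 and Bax at 40.7 CPM per kb. Lower levels followed for Bbc3 (27.1), Bcl2l11 (22.7), Bid (20.8), Bcl2l1 (10.3) and Bcl2 (7.31 CPM per kb). Mcl1 made up 47.6% to 55.3% of the summed per-length level of the 9 members in each library. Bcl2 and Bcl2l1, the other survival members, held 0.817% to 1.95% and 0.655% to 5.31%. The order depended in part on the length used, since 4 members changed places (Bak1 with Bax, Bbc3 with Bcl2l11) when the longest transcript replaced the union of exons.

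**Figure D1:**
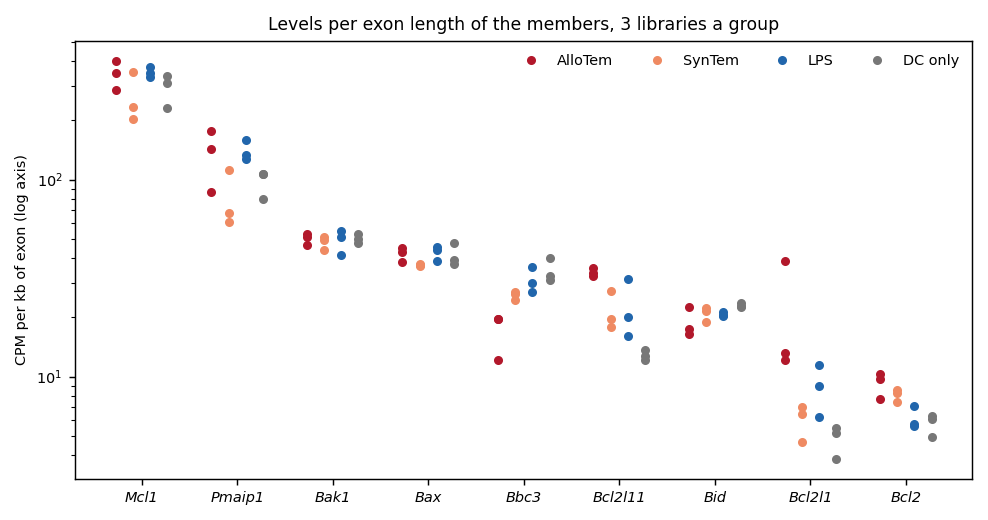
Levels of the 9 members as CPM per kb of exon on a log axis, 1 point per library, coloured by group with AlloTem leftmost. Mcl1 lies above all others in every library, and Bcl2l1 and Bcl2 lie lowest on average.

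Bcl2 was highest in the T cell cultures. Its levels were 93.9, 89.5 and 70.3 CPM in AlloTem and 77.9, 75.9 and 68.1 CPM in SynTem. In LPS it was 64.7, 51.2 and 52.9 CPM, and in DC only 55.9, 57.7 and 45.1 CPM. All 6 libraries with T cells lay above all 6 without them. Against DC only, Bcl2 rose 1.6-fold in AlloTem (log2 0.68 ± 0.14 SE, edgeR adjusted p = 0.0371, from quasi-likelihood fits with Benjamini-Hochberg adjustment over all tested genes). SynTem against DC only gave log2 0.48 ± 0.14 (edgeR adjusted p = 0.286). T cells also express Bcl2, and the 2 groups with the higher Bcl2 were those with the higher T cell markers given above. SynTem had more of these markers than AlloTem and a lower Bcl2 mean (74.0 ± 5.16 against 84.6 ± 12.6 CPM in AlloTem, SD, n = 3 each). The part of T cell RNA in the Bcl2 level was not tested. An antisense gene on the opposite strand, D630008O14Rik, shares 6.1% of the exon bases of Bcl2. Use of strand in counting is not stated in the sources used here.

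Bcl2l1, which encodes the long-lived survival protein Bcl-xL, had the largest fold of the members. It was at 60.6, 177.4 and 55.5 CPM in AlloTem, 21.3, 29.5 and 32.1 CPM in SynTem, 28.5, 52.3 and 41.3 CPM in LPS and 23.7, 17.5 and 25.2 CPM in DC only. Every AlloTem library exceeded the 9 others, and AlloTem 2 stood far above its own group. AlloTem 2 also had the highest sum of DC markers (25408 CPM), whose part in this was not tested. Bcl2l1 rose 4.42-fold in AlloTem against DC only (log2 2.14 ± 0.43 SE, edgeR adjusted p = 0.0359). Without AlloTem 2 the difference was log2 1.39 (edgeR adjusted p = 0.0544). Within batches 1, 2 and 3 the log2 ratio to DC only was 1.34, 3.30 and 1.13. Such ratios, here and below, pair libraries by the deposited batch number, whose meaning is not stated. DC only 2 was not most like the libraries of its own number. Against SynTem Bcl2l1 in AlloTem was 3.54-fold (log2 1.82 ± 0.43, edgeR adjusted p = 0.145) and against LPS 2.4-fold (log2 1.27 ± 0.42, edgeR adjusted p = 0.419). LPS itself gave log2 0.88 ± 0.42 against DC only (edgeR adjusted p = 0.999), with no overlap between the libraries of both groups.

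Mcl1, a short-lived survival protein, varied as much within groups as between them. It was at 1373, 1184 and 969 CPM in AlloTem, 1200, 692.7 and 795.7 CPM in SynTem, 1269, 1191 and 1139 CPM in LPS and 1143, 1060 and 786.2 CPM in DC only. Library 1 was the highest of its group in all 4 groups. The largest difference was that of SynTem against LPS (log2 -0.42 ± 0.21, edgeR adjusted p = 0.652), and the group ranges overlapped in all 6 comparisons.

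The effectors Bax and Bak1 differed least. Bax was at 60.3 to 70.7 CPM in AlloTem, 57.3 to 58.5 CPM in SynTem, 61.1 to 71.5 CPM in LPS and 58.6 to 75.5 CPM in DC only. Its log2 differences lay between -0.22 (SynTem against LPS, edgeR adjusted p = 0.657) and 0.19 (AlloTem against SynTem, edgeR adjusted p = 0.616). Bak1 was at 112.6 to 127.6 CPM in AlloTem, 105.8 to 123.5 CPM in SynTem, 99.3 to 132.4 CPM in LPS and 115.0 to 128.1 CPM in DC only. The mean of Bak1 was 121.3 ± 7.74 CPM in AlloTem and 121.3 ± 6.56 CPM in DC only (SD, n = 3 each). Over the 12 libraries the coefficient of variation was 8.05% for Bak1 and 9.86% for Bax, against 92.3% for Bcl2l1 and 38.9% for Bcl2l11. The 2 genes annotated as Ggnbp1 on the opposite strand share 18.2% and 7.4% of Bak1 exon bases, and Gm45808 on the same strand shares 12.2% of those of Bax, so part of these counts is uncertain.

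Bcl2l11, whose product Bim is a potent activator of apoptosis in leukocytes, was higher in AlloTem, SynTem and LPS than in DC only, and past the threshold in AlloTem. Its levels were 270.8, 259.3 and 286.4 CPM in AlloTem, 217.4, 144.1 and 156.9 CPM in SynTem, 251.8, 128.1 and 161.0 CPM in LPS and 109.5, 102.2 and 97.1 CPM in DC only. Every AlloTem, SynTem and LPS library lay above every DC only library, and SynTem 1 and LPS 1 lay well above the 2 others of their groups. SynTem 1 and LPS 1 also had the highest macrophage marker sums of their groups (129.9 and 76 CPM). So had AlloTem 1 (115.2 CPM), whose Bcl2l11 was not the highest of its group. The part of such cells in Bcl2l11 was not tested. Bcl2l11 rose 2.64-fold in AlloTem (log2 1.40 ± 0.23 SE, edgeR adjusted p = 0.0159), with log2 ratios of 1.30, 1.34 and 1.56 within batches 1, 2 and 3. The difference was log2 0.75 ± 0.22 in SynTem (edgeR adjusted p = 0.3) and 0.81 ± 0.22 in LPS (edgeR adjusted p = 0.999). Between AlloTem and the other groups it was 0.66 ± 0.22 against SynTem and 0.59 ± 0.22 against LPS (edgeR adjusted p = 0.346 and 0.557). T cells also express Bcl2l11, and what T cell RNA added to its level was not tested.

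Bbc3, whose product Puma is a BH3-only protein induced by p53 and by cytokine withdrawal, was the member that fell. It was at 41.6, 25.9 and 41.7 CPM in AlloTem, 52.3, 55.7 and 57.3 CPM in SynTem, 63.4, 57.0 and 76.7 CPM in LPS and 85.0, 65.4 and 69.0 CPM in DC only. All AlloTem libraries lay below the 9 others, with AlloTem 2 the lowest. Bbc3 was 0.498-fold of DC only in AlloTem (log2 -1.01 ± 0.18 SE, edgeR adjusted p = 0.0247), with log2 ratios of -1.02, -1.32 and -0.72 within batches 1, 2 and 3. Against LPS the difference was -0.85 ± 0.18 (edgeR adjusted p = 0.084) and against SynTem -0.60 ± 0.18 (edgeR adjusted p = 0.281). SynTem against DC only gave -0.41 ± 0.18 (edgeR adjusted p = 0.59), with no overlap between the libraries.

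Bcl2l11 and Bbc3 moved in opposite directions in AlloTem, and both are textbook targets of FOXO transcription factors, so the 250 bases before the RefSeq start site nearest to the GENCODE start of each are shown (5′ to 3′ on the gene's strand, RefSeq on GRCm38.p6). Capitals mark the motif matches found on either strand. The Bcl2l11 window lies at chr2:128125788-128126037 on the plus strand and the Bbc3 window at chr7:16309333-16309582 on the plus strand. This Bbc3 start site is 1190 bases inside the start that GENCODE gives for Bbc3.
Bcl2l11: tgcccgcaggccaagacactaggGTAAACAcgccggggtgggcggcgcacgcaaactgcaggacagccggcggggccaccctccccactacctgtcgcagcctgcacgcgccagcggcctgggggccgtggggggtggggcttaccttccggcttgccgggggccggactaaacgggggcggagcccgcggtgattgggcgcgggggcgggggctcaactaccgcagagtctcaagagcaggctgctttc
Bbc3: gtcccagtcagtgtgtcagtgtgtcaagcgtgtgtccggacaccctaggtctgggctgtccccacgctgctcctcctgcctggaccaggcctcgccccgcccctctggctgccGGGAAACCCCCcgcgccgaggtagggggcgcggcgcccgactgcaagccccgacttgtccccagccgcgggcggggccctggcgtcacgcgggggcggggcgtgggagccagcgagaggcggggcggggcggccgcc
In the Bcl2l11 window the capitals are GTAAACA, a FOXO motif, beginning 227 bases before the start site. In the Bbc3 window they are 2 matches to the NF-kB consensus that overlap by all but 1 base, beginning 137 and 136 bases before the start site. Of 32851 RefSeq windows of this length 3.17% held GTAAACA and 3.9% the NF-kB consensus. STAT (TTCNNNGAA), AP-1 (TGANTCA), CRE (TGACGTNA) and E-box (CACGTG) motifs had no match in these 2 windows. Counting every RefSeq start site, 1 of 3 Bcl2l1 and 1 of 3 Bbc3 windows held the NF-kB consensus. A FOXO motif stood in 1 of 2 Bcl2l11 and 1 of 3 Bbc3 windows. An E-box stood in 1 of 3 Bbc3 windows and in the 1 Bax window, beside 6.02% of all RefSeq windows. Bcl2, Mcl1, Bak1 and Bid had 1 window each, which held none of the 6 motifs. These matches describe letters only, and factor binding was not measured.

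Bid, which links death receptors to mitochondria after cleavage by caspase 8, was lowest in 2 of the AlloTem libraries. It was at 61.7, 58.1 and 80.4 CPM in AlloTem, 67.3 to 78.7 CPM in SynTem, 71.7 to 75.5 CPM in LPS and 79.9 to 83.5 CPM in DC only. AlloTem 3 lay within the DC only range and the other AlloTem libraries below it. The difference from DC only was log2 -0.29 ± 0.12 (edgeR adjusted p = 0.33), and without AlloTem 3 it was -0.43 (edgeR adjusted p = 0.0454). Bcl2l13 on the opposite strand, at a mean of 81.5 CPM over all libraries, shares 17.7% of the exon bases of Bid.

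**Figure D2:**
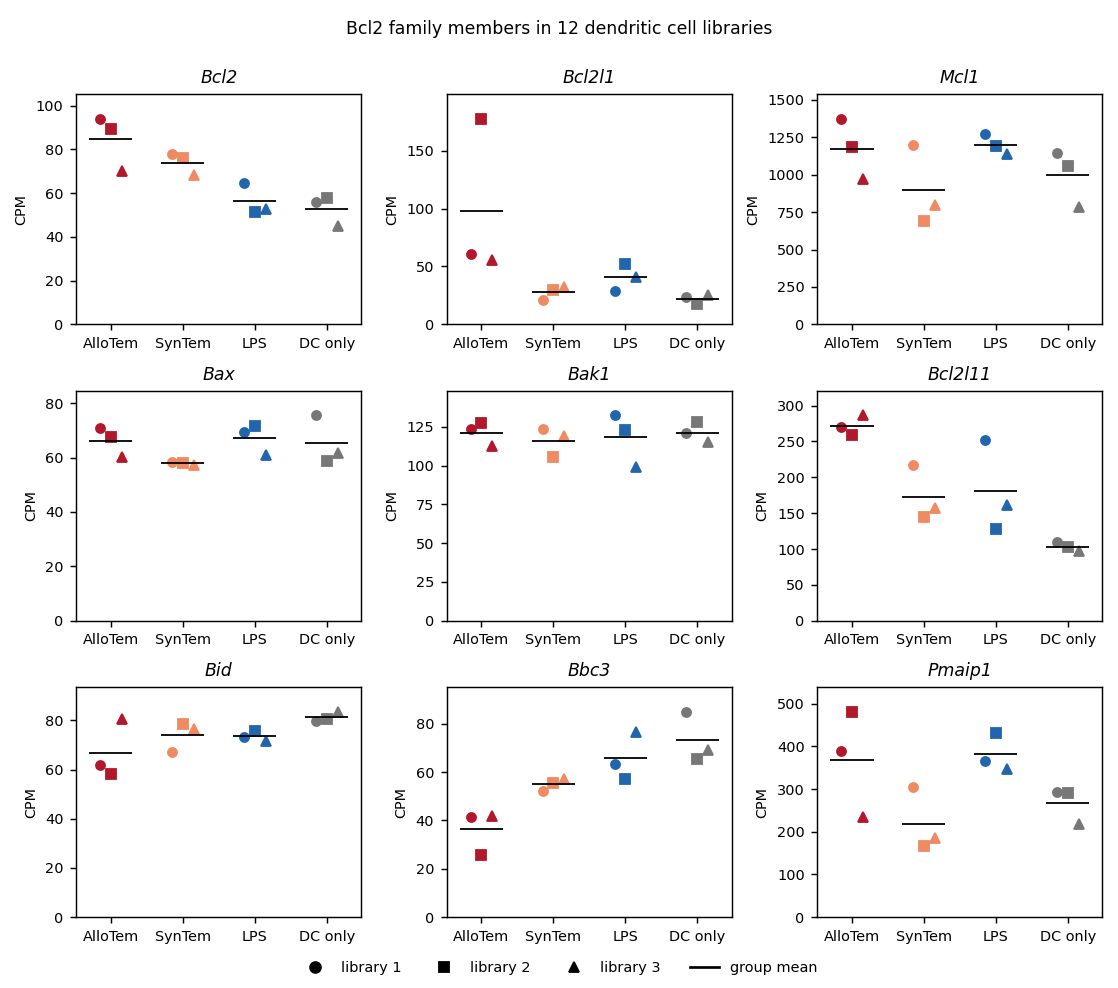
CPM of each member in the 12 libraries, with AlloTem left and DC only right in each panel, symbols by library number and bars at group means. AlloTem libraries lie above all others for Bcl2l1 and Bcl2l11 and below all others for Bbc3, while Bax and Bak1 lie close together in all groups.

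Coordinates on GRCm38 for the members of the survival and effector classes were as follows, from GENCODE M21. Bcl2 (ENSMUSG00000057329) lies on chromosome 1 from 106538178 to 106714274, and Bcl2l1 (ENSMUSG00000007659) on chromosome 2 from 152780668 to 152831728. Mcl1 (ENSMUSG00000038612) lies on chromosome 3 from 95658788 to 95663176. Bax (ENSMUSG00000003873) lies on chromosome 7 from 45461697 to 45466898 and Bak1 (ENSMUSG00000057789) on chromosome 17 from 27019810 to 27029009. Of the BH3-only genes, Bcl2l11 (ENSMUSG00000027381) spans 128126038 to 128162547 on chromosome 2, Bbc3 (ENSMUSG00000002083) 16308393 to 16318205 on chromosome 7 and Bid (ENSMUSG00000004446) 120891930 to 120916853 on chromosome 6. Counts are per gene, so transcript forms of 1 gene, such as the long and short forms of Bcl2l1, were not separated.

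Pmaip1 (ENSMUSG00000024521, chromosome 18 from 66458533 to 66465565), whose product Noxa binds Mcl1, followed Mcl1 rather than the other BH3-only genes. It was at 390.0, 481.3 and 235.7 CPM in AlloTem, 304.2, 167.0 and 185.0 CPM in SynTem, 365.3, 432.0 and 346.5 CPM in LPS and 292.1, 291.3 and 217.5 CPM in DC only. SynTem lay wholly below LPS (log2 -0.80 ± 0.28, edgeR adjusted p = 0.455), and LPS wholly above DC only (0.51 ± 0.28, edgeR adjusted p = 0.999). AlloTem overlapped each other group, with log2 0.76 ± 0.28 against SynTem (edgeR adjusted p = 0.408). Across the 12 libraries the log2 CPM of Pmaip1 and Mcl1 had a Pearson r of 0.901, the highest of the 36 member pairs, and the lowest was that of Bcl2l1 and Bbc3 (-0.817). These libraries share groups and batches, so the values describe likeness only.

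In the comparison of AlloTem with DC only, which asked what allospecific memory T cells do to DCs over 3 h, 3 members rose (Bcl2, Bcl2l1 and Bcl2l11) and 1 fell (Bbc3). These 4 of 9 stand beside 1.76% of all 14413 genes called in this comparison (edgeR adjusted p under 0.05). At an unadjusted p under 0.05 there were 5 members, with Bid, beside 12.7% of all genes. The same 4 showed no overlap between the libraries of both groups, beside 17.2% of all genes. The median log2 difference was 0.24 over the members and 0.00 over all genes. The T cell, neutrophil and B cell marker sums given above also did not overlap between AlloTem and DC only, each higher in AlloTem, and their part in the members' differences was not tested. DESeq2 and the fit with the batch number as a block also called these 4, and limma voom called all but Bcl2l1 (adjusted p = 0.0675). Over all genes these called 676, 420 and 189, where edgeR as reported called 253. Only 42, 43 and 122 genes were called without DC only 1, 2 or 3. Bcl2l11 and Bbc3 passed in 9 of 12 fits without 1 library each and did not pass without DC only 1, 2 or 3 (edgeR adjusted p = 0.0822, 0.0858 and 0.0568 for Bcl2l11, and 0.117, 0.0779 and 0.0568 for Bbc3). Bcl2 passed in 3 of 12 and lost its call without AlloTem 1 or 2, SynTem 2 or 3, LPS 2 or 3 or any DC only library (edgeR adjusted p between 0.0524 and 0.137). Bcl2l1 passed in 4 of 12 and lost its call without AlloTem 2, SynTem 2 or 3, LPS 2 or 3 or any DC only library (edgeR adjusted p between 0.0538 and 0.176). With DC only 2 and SynTem 2 both left out, whose profiles did not follow their own number, 0 of the 4 passed (edgeR adjusted p = 0.117 to 0.243), among 16 genes called over all. With the block as well 3 did (all but Bcl2l1), among 272 genes. In every one of 21 alternative settings the direction of these 4 was kept.

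**Figure D3:**
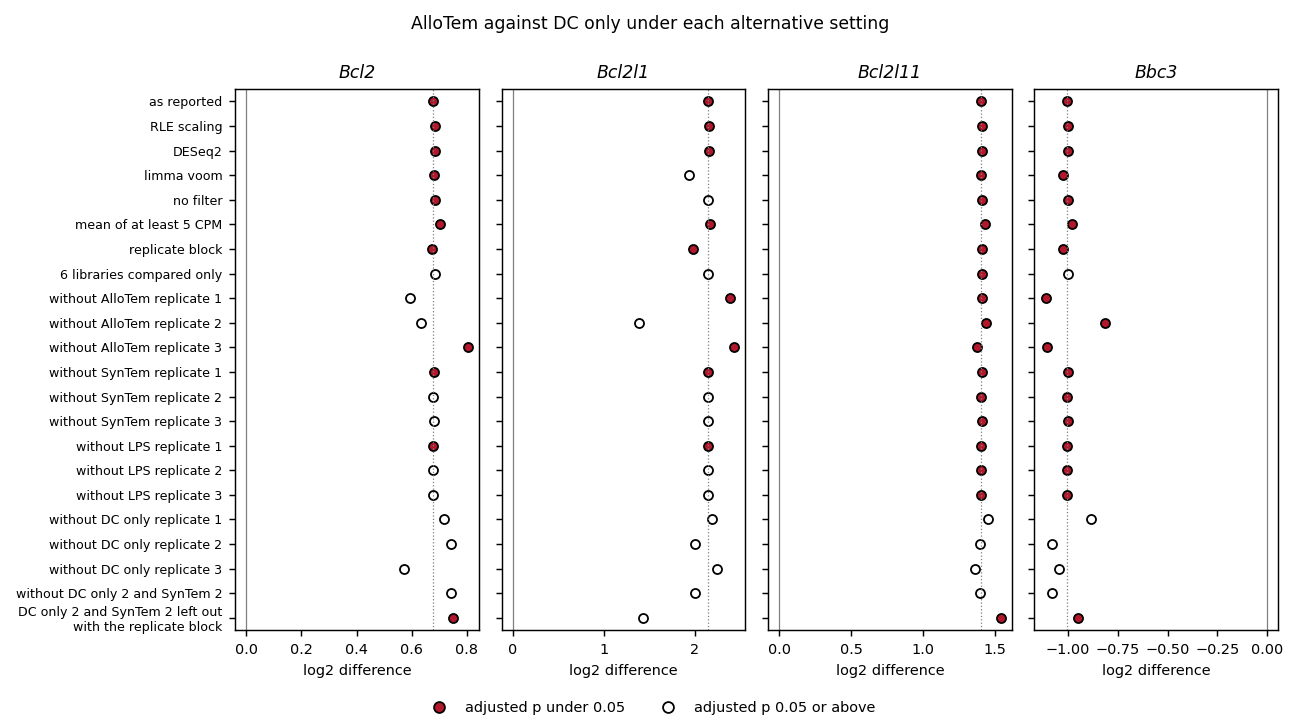
Log2 difference of AlloTem against DC only (x axis) for the 4 called members under each setting (listed down the page), filled where the adjusted p was under 0.05. The points of Bcl2l11 lie between 1.36 and 1.54 and those of Bbc3 between -1.11 and -0.81, and all 4 are open where DC only 1, 2 or 3 was left out.

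Between AlloTem and SynTem, the comparison of allospecific with syngeneic memory T cells, 0 members passed over all genes by edgeR, beside 0.167% of all genes. DESeq2 called Bcl2l1 (DESeq2 adjusted p = 0.00126), among 318 genes, and limma voom 0 members, among 29 genes. At an unadjusted p under 0.05 there were 4 members (Bcl2l1, Bcl2l11 and Pmaip1 higher, Bbc3 lower), beside 9.58% of all genes. Libraries did not overlap for 4 members (Bcl2l1, Bcl2l11 and Bax higher, Bbc3 lower), beside 13.0% of all genes. The median log2 difference was 0.19 over the members and -0.01 over all genes. The T cell marker sums given above were lower in AlloTem than in SynTem, and the B cell and plasmacytoid DC sums higher, without overlap. Their part in the members' differences was not tested.

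Between AlloTem and LPS, 0 members passed by edgeR without a batch term, beside 0.451% of all genes. With the batch number as a block 2 passed, Bcl2 higher (log2 0.58, edgeR adjusted p = 0.0242) and Bbc3 lower (-0.87, edgeR adjusted p = 0.029). DESeq2 called the same 2 genes and limma voom 0. Over all genes the block called 136, DESeq2 288 and limma voom 64, where edgeR without a batch term called 65. At an unadjusted p under 0.05 there were 4 members (Bcl2, Bcl2l1 and Bcl2l11 higher, Bbc3 lower), beside 6.50% of all genes, and the same 4 did not overlap, beside 10.1%. Estimates for Mcl1, Bax, Bak1 and Pmaip1 were within 0.05 of no difference on the log2 scale. Their SEs were larger (0.21, 0.109, 0.112 and 0.275), so equal levels are not shown.

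In the 3 comparisons without AlloTem 0 members passed by edgeR, DESeq2, limma voom or the block. SynTem against LPS had 2 members at an unadjusted p under 0.05 (Bcl2 higher, Pmaip1 lower), beside 7.97% of all genes, and 0.0486% of genes were called. Libraries did not overlap for 3 members (Bcl2 higher, Bax and Pmaip1 lower), beside 13.9%. SynTem against DC only had 3 members at an unadjusted p under 0.05 (Bcl2 and Bcl2l11 higher, Bbc3 lower), beside 8.24%, and 0.0902% of genes were called. There 5 members did not overlap (Bcl2 and Bcl2l11 higher, Bax, Bid and Bbc3 lower), beside 14.3%. LPS against DC only had Bcl2l11 alone at an unadjusted p under 0.05 (rank 32 of 14413 genes by p), beside 3.68%, and 0% of genes were called. There 4 members did not overlap (Bcl2l1, Bcl2l11 and Pmaip1 higher, Bid lower), beside 9.87%. The T cell marker sums given above were higher in SynTem than in LPS or DC only, and the plasmacytoid DC sums lower, without overlap. Their part in the members' differences was not tested. All comparisons that use a group share its 3 libraries, so they are not independent of each other.

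**Figure D4:**
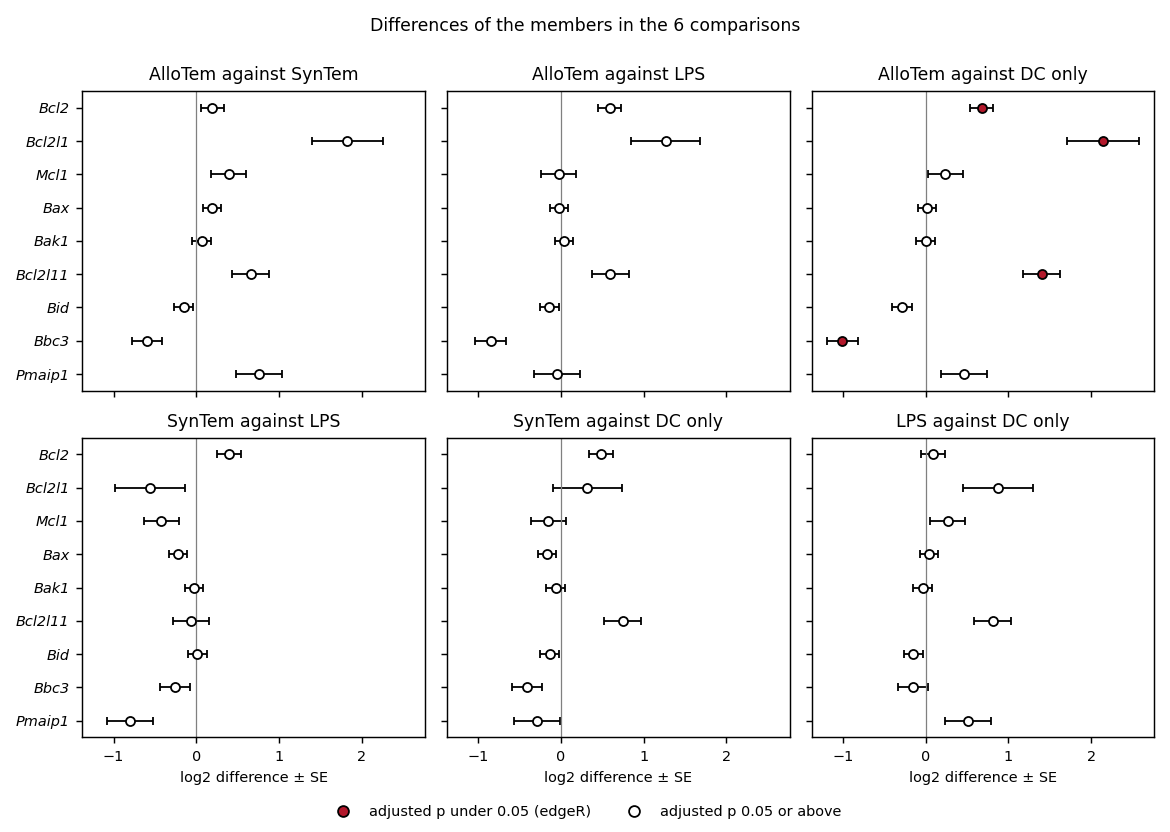
Log2 differences ± SE of the 9 members in the 6 comparisons, filled where the edgeR adjusted p was under 0.05. Only AlloTem against DC only holds filled points (Bcl2, Bcl2l1, Bcl2l11 and Bbc3), and Bcl2l1 has the widest error bars.

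A test for any difference among the 4 groups called 0 members by edgeR, beside 1.26% of all genes. The smallest adjusted p was that of Bcl2l11 (edgeR adjusted p = 0.0514), and Bbc3, Bcl2l1 and Bcl2 followed (0.0721, 0.0727 and 0.0771). At an unadjusted p under 0.05 there were 5 members, these 4 and Pmaip1, beside 10.4% of all genes. With the block 3 passed (Bcl2, Bcl2l11 and Bbc3), DESeq2 called 4 and limma voom 0. Over all genes these called 299, 770 and 75. When the groups were ordered by mean level for each member, 0 of 27 neighbouring pairs passed (smallest edgeR adjusted p = 0.281, Bbc3 in AlloTem against SynTem). Neighbours in an order by mean have the smallest gaps, so this count does not show whether groups differ.

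The genes most like each member across the 12 libraries were taken by Pearson r of log2 CPM among 9717 genes. They were Plk2, Sertad2 and Flt1 for Bcl2l11 (0.958, 0.936 and 0.932) and Il16, Suds3 and Endod1 for Bbc3 (0.966, 0.961 and 0.922). For Pmaip1 they were Baz1a, Traf1 and Cd83 (0.982, 0.963 and 0.96) and for Mcl1 Bcl10, Nfkbia and Ptger4 (0.966, 0.964 and 0.964). For Bcl2 they included Fosl2 and Dok2 (0.919 and 0.906) and for Bcl2l1 Imp4, AA467197 and Epop (0.935, 0.928 and 0.927). Those of Bid (Thap7, Psmd5 and Trim23), Bak1 (Ovca2, Cox7c and Sdf2l1) and Bax (Tmem11, Gsk3a and Atp5f1) were at 0.88 to 0.91.

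Other genes of the pathway were read from lists chosen for their roles. Of the other survival relatives, 4 of 5 were tested and 4 of 4 were positive in AlloTem against DC only (median log2 1.53, all genes 0.00), of which Bcl2a1a passed. The 4 were the near-identical Bcl2a1a, Bcl2a1b and Bcl2a1d, so not separate genes in effect, and Bcl2l2 (log2 0.18, edgeR adjusted p = 0.65). Bcl2a1a encodes a copy of A1, an inducible survival protein, and rose to 43.8 ± 10.3 CPM in AlloTem, against 14.8 ± 4.32 CPM in DC only (SD, n = 3 each, log2 1.57 ± 0.26, edgeR adjusted p = 0.0168). Its call was lost without AlloTem 1 or 2 or DC only 1 or 2 (edgeR adjusted p = 0.0524 to 0.0986). The copies Bcl2a1b and Bcl2a1d did not pass (log2 1.69 and 1.49, edgeR adjusted p = 0.211 and 0.388). They were most abundant in AlloTem 2 (376.1 and 327.8 CPM) and lowest in library 2 of SynTem (43.8 and 30.2 CPM), and reads could be split among these copies. AlloTem 3 (80.8 and 53.7 CPM) lay below DC only 1 (88.9 and 90.3 CPM) and 2 (83.6 and 86.1 CPM) and above DC only 3 (46.7 and 33.8 CPM). Of the other proapoptotic relatives 2 of 5 were tested, and Bmf, a BH3-only gene, was at 53.9 ± 11.9 CPM in AlloTem and 103.8 ± 43.4 CPM in DC only (log2 -0.95 ± 0.31, edgeR adjusted p = 0.2). With the batch number as a block Bmf passed (log2 -0.90, edgeR adjusted p = 0.0481), but it passed in 0 of 12 fits without 1 library. Without DC only 3 its difference was log2 -0.55 (edgeR adjusted p = 0.429). Of 5 distant relatives 0 passed in any comparison, with 1 at an unadjusted p under 0.05 (Bcl2l14, LPS against DC only, log2 0.53 ± 0.22, edgeR adjusted p = 0.999).

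Of 10 apoptosome and caspase genes 1 rose in AlloTem against DC only, where 1.76% of all genes were called, and 0 passed in the other 5 pairwise comparisons (0% to 0.451% of all genes). Diablo, which releases caspases from their inhibitors, was at 46.6 ± 5.50 CPM in AlloTem and 32.3 ± 0.940 CPM in DC only (SD, n = 3 each, log2 0.53 ± 0.10, edgeR adjusted p = 0.0263). It did not pass without AlloTem 2 (edgeR adjusted p = 0.0874) or without DC only 1, 2 or 3 (0.109, 0.117 and 0.0812). Among 12 survival kinases and cytokine receptors 11 were positive in AlloTem against DC only (median log2 0.69), and Pim3, Pim2 and Il4ra rose. Pim3, a kinase that phosphorylates the BH3-only protein Bad, was at 75.4 ± 10.4 CPM in AlloTem, 34.8 ± 4.39 CPM in SynTem, 42.5 ± 4.67 CPM in LPS and 30.3 ± 3.99 CPM in DC only (SD, n = 3 each). It rose in AlloTem against DC only by log2 1.32 ± 0.15, against SynTem by 1.11 ± 0.15 and against LPS by 0.83 ± 0.15 (edgeR adjusted p = 0.00266, 0.0137 and 0.0408). The first held in each of the 12 fits without 1 library. The difference from SynTem was lost without SynTem 2 or 3 (edgeR adjusted p = 0.101 and 0.0674), and that from LPS was kept in 3 of 12. Pim2 rose by log2 1.57 ± 0.30 (edgeR adjusted p = 0.0269, kept in 7 of 12 fits, lost without AlloTem 2 or 3 or any DC only library). Il4ra, a chain of the interleukin-4 receptor, rose by 1.31 ± 0.28 (edgeR adjusted p = 0.0438, kept in 3 of 12 fits, lost in the others but those without AlloTem 3, LPS 2 or LPS 3).

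In the 6 remaining lists 0 genes passed in any comparison by edgeR without a batch term. At an unadjusted p under 0.05, AlloTem against DC only had 1 of 8 inhibitors of apoptosis, 2 of 11 death receptor genes, 4 of 13 p53 pathway genes, 3 of 9 regulators of Bcl2l11 and Bbc3 transcription, 0 of 6 regulators of Mcl1 turnover and 0 of 10 mitochondrial outer membrane genes, beside 12.7% of all genes. The smallest unadjusted p of each belonged to Cflar among inhibitors of apoptosis (AlloTem against DC only, log2 1.31, edgeR adjusted p = 0.142) and Tnfsf10 in the death receptor pathway (SynTem against LPS, log2 3.09, edgeR adjusted p = 0.135). In the p53 pathway it was Cdkn1a (AlloTem against SynTem, log2 2.20, edgeR adjusted p = 0.145). Among regulators of Bcl2l11 and Bbc3 transcription it was Egr1 (AlloTem against DC only, log2 2.85, edgeR adjusted p = 0.0649). Egr1 passed with the batch number as a block (log2 2.80, edgeR adjusted p = 0.0149), in limma voom (adjusted p = 0.0458) and in DESeq2 (adjusted p = 0.00139). By edgeR it passed in 2 of 12 fits without 1 library, those without AlloTem 3 or SynTem 1 (adjusted p = 0.0483 and 0.028). Cflar, Tnfsf10 and Cdkn1a each passed in 1 of 12 fits without 1 library. These were the fits without AlloTem 3, SynTem 1 and DC only 3 (edgeR adjusted p = 0.0237, 0.0265 and 0.0491). In the other such fits the edgeR adjusted p reached 0.446, 0.457 and 0.533. DESeq2 called each of these 3 (adjusted p = 0.0107, 0.000162 and 0.000396), among 676, 198 and 318 genes over all in their comparisons. Among regulators of Mcl1 turnover it was Dusp6 and among mitochondrial outer membrane proteins Tomm20 (both SynTem against LPS, log2 0.73 and -0.16, edgeR adjusted p = 0.5 and 0.64). Of the 13 tested p53 pathway genes, 8 were positive in AlloTem against DC only (median log2 0.12). The large log2 difference of Tnfsf10 rests on low levels, with a mean of 4.62 CPM over all libraries. Tnfsf10 was at 3.42, 15.6 and 17 CPM in SynTem and at 1.13, 2.26 and 0.84 CPM in LPS. SynTem 1 was also the lowest of its group in the T cell marker sums given above, which were higher in SynTem than in LPS. The part of T cell RNA in the Tnfsf10 level was not tested.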

How the data were processed

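Sorted mouse DCs were profiled by RNA sequencing, in 12 libraries. Per the labels' protocols, RNA was treated with DNase and TruSeq libraries were read single-end on a NextSeq. What the authors deposited is a table of unnormalized counts, with 57009 Ensembl gene identifiers, on build mm10 per the submitters' processing notes. Aligner, counter, strand setting and annotation release: not given in the sources used here. Batch numbers stand in a separate deposited table. They matched the replicate numbers for 12 of 12 libraries, with no word on what a batch was.

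Symbols, coordinates and exon lengths came from GENCODE M21 (52080 identifiers matched). Genes were filtered with filterByExpr (minimum count 10, minimum total 15), scaled by TMM factors and tested in edgeR 4.0.16 (R 4.3.3, robust quasi-likelihood), where all 12 libraries entered 1 fit and each group had its mean. Benjamini-Hochberg adjustment covered the 14413 genes, and calls needed an adjusted p under 0.05. SEs are the log2 difference divided by the square root of F. Ratios within a batch used CPM plus 0.5, and log2 CPM for correlations a prior count of 2. Alternatives were RLE scaling, DESeq2 1.42.0, limma 3.58.1 voom, other filters, the 6 libraries compared, the replicate number as a block, and leaving out libraries. Leaving out DC only 2 and SynTem 2 together with the block was added after seeing the data, as were the alternatives for genes named from lists. Scripts were tested on simulated counts. The depth of at least 13903574 counts per library gave every member 286 counts or more.

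The block rests on the deposited batch numbers. As a check, deviations from group means correlated at a median of 0.247 over 18 pairs of libraries with the same number (12 above 0.1, range -0.249 to 0.632). The median was -0.201 where numbers differed, but deviations sum to 0 in each group, so this value is not a separate contrast. In all, 10 of 12 libraries were most like their own number, not SynTem 2 or DC only 2. The members, lists and tests were chosen with earlier results of these data known. Named were all members, called list genes or else the list's smallest p, and per member the 3 genes of highest r among those with a mean of at least 5 CPM, of which 1 is not reported here. Of 2 identifiers named Ddit3, the one with more counts was used. Promoter sequences are RefSeq's on GRCm38.p6, which had windows for 8 of the members, and those of Bcl2l11 and Bbc3 are printed.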

Additional observations from a re-analysis of the deposited data

How the results depend on the processing

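The 4 calls in AlloTem against DC only moved with the settings. Leaving out 1 library gave 0 to 5 members called, limiting the comparison to its 6 libraries gave 1 (Bcl2l11), and leaving out DC only 2 and SynTem 2 gave 0. Calls over all genes moved as well, from 253 as reported to 42 to 323, 98 and 16 in these fits. In AlloTem against SynTem, DESeq2 called 1 member, among 318 genes over all where edgeR as reported called 24. In AlloTem against LPS, DESeq2 and the replicate block called 2 each, the fit without a filter 1, and the block without DC only 2 and SynTem 2 called 2. Over all genes these settings called 288, 136, 89 and 198, where edgeR as reported called 65. The fit without a filter tested 25444 genes. For any difference among the 4 groups, RLE scaling called 1, DESeq2 4, no filter 3, the block 3, the block without DC only 2 and SynTem 2 3, and leaving out 1 library 0 to 1. In the same order, the genes called over all were 186, 770, 236, 299, 220 and 69 to 215. As reported, edgeR called 181. With the longest transcript 4 members stood at another place in the order per length. Of 1134 values over 54 member comparisons 1041 kept direction and side of the threshold, 33 lost it, 9 gained it and 51 changed sign.

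The sign changes concerned small differences, none past the threshold, and the cause was not tested. On the log2 scale, leaving out 1 library gave for AlloTem against LPS -0.157 to 0.098 (Mcl1), -0.089 to 0.044 (Bax), -0.073 to 0.126 (Bak1) and -0.285 to 0.197 (Pmaip1). For AlloTem against DC only it gave -0.051 to 0.137 (Bax) and -0.039 to 0.06 (Bak1). For SynTem against LPS it gave -0.138 to 0.062 (Bak1), -0.261 to 0.256 (Bcl2l11) and -0.033 to 0.075 (Bid), and for SynTem against DC only -0.421 to 0 (Mcl1). For LPS against DC only it gave -0.024 to 0.156 (Bcl2), -0.026 to 0.162 (Bax) and -0.127 to 0.073 (Bak1). Bak1 in AlloTem against DC only was 0 with limma voom and -0.001 with the replicate block. Leaving out DC only 2 and SynTem 2 gave -0.051 for Bax in AlloTem against DC only, 0.035, 0.053 and -0.033 for Bak1, Bcl2l11 and Bid in SynTem against LPS, 0.048 and 0.039 for Mcl1 and Bak1 in SynTem against DC only, and -0.026 and 0.004 for Bax and Bak1 in LPS against DC only. With the block as well, Bak1 was -0.036 in AlloTem against SynTem, Bax -0.078 in AlloTem against DC only, Bak1 0.077 and Bid -0.077 in SynTem against LPS, Mcl1 0.044 and Bak1 0.039 in SynTem against DC only, and Bax -0.053 in LPS against DC only.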
